A study of Mus musculus with 15 samples.

Results

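The Dlk1-Dio3 cluster is a stretch of imprinted genes on the distal part of mouse chromosome 12, and 6 of its genes are described here, the protein-coding genes Dlk1, Rtl1 and Dio3 and the noncoding RNA genes Meg3, Rian and Mirg. They were taken by gene name from a deposited table of 24831 gene names and 49404 transcripts, in which the 6 names covered 24 transcripts. The study sequenced total hypothalamic RNA of outbred CD-1 mice aged 15 postnatal days. There were 3 samples each of Control, PGM, PGF, HM and HF, 15 in all, under a series title on thyroid hormone effects seen in F2 animals. The labels do not spell out the group codes, and they give no sex, treatment or dose, so the codes are used as they stand. Every animal group shares the strain, the age and the tissue.

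Imprinted genes are expressed from the copy inherited from 1 parent. In this cluster Dlk1, Rtl1 and Dio3 are known as paternally expressed, with a preference for the paternal copy of Dio3 that depends on the tissue, and Meg3, Rian and Mirg as maternally expressed. The maternal RNAs are thought to belong to long transcription units that also carry many small nucleolar RNAs and microRNAs, and a methylated control region upstream of Meg3 sets which parental copy is active. Levels summed over both copies, as measured here, do not show from which copy an RNA came.

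In the GENCODE M21 annotation of GRCm38, the assembly called mm10, Dlk1 lies at chr12:109452823-109463336 and Meg3 at chr12:109541001-109571726, both on the plus strand. Rtl1 lies on the minus strand at chr12:109589193-109600330. Rian (chr12:109603940-109661716), Mirg (chr12:109729764-109749460) and Dio3 (chr12:110279068-110281097) follow on the plus strand. Each level is the authors' mean RPKM of a group, a read count scaled to transcript length and library size, so levels can be compared between genes per length. For a gene with several transcripts it is the median over them. No value per sample was used here. The differences therefore have no replicate check, SD, test or interval, the read depth is unknown, and neighbouring levels in an order of groups cannot be judged against the spread between animals.

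The bases before the start sites of Dlk1 and Meg3 are shown because these 2 genes differed most in opposite directions in PGM. Each line gives the 250 bases before 1 start site of the gene in the RefSeq promoter table, in GRCm38.p6 on the plus strand, Dlk1 at chr12:109452573-109452822 and Meg3 at chr12:109540746-109540995. Capitals mark matches on either strand to any of 4 motifs. They are the TATA box motif TATAAA, the promoter motif CCAAT, the cyclic AMP response element TGACGTCA and the nuclear receptor core motif AGGTCA.
Dlk1: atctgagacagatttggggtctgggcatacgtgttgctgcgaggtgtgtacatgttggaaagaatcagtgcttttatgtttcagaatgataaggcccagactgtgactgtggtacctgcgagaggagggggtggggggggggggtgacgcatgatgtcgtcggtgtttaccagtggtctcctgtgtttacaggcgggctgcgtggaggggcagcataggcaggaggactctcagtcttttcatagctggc
Meg3: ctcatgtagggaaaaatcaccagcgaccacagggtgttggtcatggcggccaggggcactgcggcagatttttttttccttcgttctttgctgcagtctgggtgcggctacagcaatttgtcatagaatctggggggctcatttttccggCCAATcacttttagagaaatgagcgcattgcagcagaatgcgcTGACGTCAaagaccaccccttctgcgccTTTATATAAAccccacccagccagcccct
The Meg3 window held TATAAA on both strands in overlapping positions, CCAAT 1 time and TGACGTCA 1 time. None of these motifs, and no AGGTCA, was in the Dlk1 window. RefSeq's span of Dlk1 begins further upstream, at position 109452485, so the Dlk1 window lies within that span and does not cover the bases before its first start. Among 32851 upstream windows of the same length in the RefSeq table, TATAAA was found in 12.4%, CCAAT in 33.8%, TGACGTCA in 1.55% and AGGTCA in 4607 windows. A match is only a run of letters, and RefSeq lists 2 start windows for Meg3, of which the more upstream one is shown.

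MicroRNAs encoded opposite Rtl1 are shown because the reads of Rtl1 and of its antisense RNA bear on how the Rtl1 values can be read. RefSeq places 6 hairpins with 11 mature microRNAs on the plus strand within the GENCODE span of Rtl1 given above. RefSeq's own span of Rtl1 is longer, chr12:109564900-109604418, and holds further hairpins that are not counted here. All 11 mature sequences matched the Rtl1 transcript of 6358 bases with full complementarity, which their place opposite its exon sequence fixes in advance. One mature sequence per hairpin is given 5′ to 3′ with the seed, bases 2 to 8, in capitals.
mmu-miR-431-5p: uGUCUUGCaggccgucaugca
mmu-miR-433-3p: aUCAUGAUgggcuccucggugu
mmu-miR-127-3p: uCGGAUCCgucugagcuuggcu
mmu-miR-434-3p: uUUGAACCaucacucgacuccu
mmu-miR-432: uCUUGGAGuagaucagugggcag
mmu-miR-136-5p: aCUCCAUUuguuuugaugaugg
The 11 seeds are all different. The site of miR-127-3p in the Rtl1 transcript reads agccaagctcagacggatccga. For 3 of these 6 hairpins a row was used, with values between 0 and 1.08 RPKM, and hairpin rows of a total RNA library do not measure mature microRNAs.

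Dlk1, which encodes a transmembrane protein related to the Notch ligands and is known from preadipocytes, neurons of the hypothalamus and the pituitary, was the most abundant of the 3 paternally expressed genes of the cluster. Its level was 43.3 RPKM in Control, 27.1 in PGM and 30.7 in PGF, with 39.3 in HM and 36.3 in HF. Control was the highest group and PGM the lowest. Differences are on the scale of log2(mean RPKM + 0.5), first group minus second, and a gene is counted where the difference reaches 1.5-fold in size. Dlk1 in PGM differed from Control by -0.67, in PGF by -0.49, in HM by -0.14 and in HF by -0.25. It was counted in PGM, at 0.63 times Control, and in no other group. In bulk tissue, fewer cells of a type and less RNA per cell cannot be told apart, and hypothalamic marker genes, given further on, were also lower in PGM and PGF. The 5 Dlk1 transcripts hardly differed from each other, with differences from Control between -0.68 and -0.66 in PGM.

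Rtl1, a gene derived from a retrotransposon that is needed for placental capillaries and also expressed in brain and muscle, was at 19.1 RPKM in Control, 12.1 in PGM and 13.1 in PGF, with 16.3 in HM and 19.4 in HF. PGM and PGF were again the lowest groups, while HF stood beside Control. Against Control, PGM differed by -0.63, which was counted, PGF by -0.53, HM by -0.22 and HF by 0.02. Rtl1 stood at 44.0% of the Dlk1 level in Control, 44.7% in PGM, 42.5% in PGF and 41.4% in HM, against 53.3% in HF. The ratio of these genes was thus nearly the same in 4 groups and higher in HF, where Dlk1 was lower than in Control and Rtl1 was not.

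Rtl1 overlaps an RNA of the opposite strand, listed in the table as 6430411K18Rik (chr12:109591537-109592851 in RefSeq), for which RefSeq gives the alias PEG11as and which is known as a maternally expressed source of microRNAs that cleave Rtl1 RNA. Its level was 15.5 RPKM in Control, 9.30 in PGM and 9.98 in PGF, with 12.6 in HM and 15.8 in HF. The order of its groups was that of Rtl1, and its difference from Control was -0.71 in PGM and -0.61 in PGF. The sources used here do not say whether counting used strand, so reads of Rtl1 and of the antisense RNA cannot be told apart.

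Dio3, the deiodinase that inactivates thyroid hormones, was close to the lower end of the table at 0.94 RPKM in Control, 1.27 in PGM and 0.76 in PGF, with 0.92 in HM and 1.06 in HF. PGM was the highest group and PGF the lowest. PGM differed from Control by 0.30, PGF by -0.19, HM by -0.02 and HF by 0.12, none of them counted. With a mean of 0.99 RPKM it was the only one of the 6 genes below the mean of 1 RPKM that a gene needed to enter the counts over all genes. At such a level the added 0.5 RPKM shrinks the difference, and between PGM and PGF the value was 0.49, against 0.67 with 0.1 RPKM added. Dio3os, an RNA transcribed away from the Dio3 promoter, was listed at 0.40 RPKM in Control, 0.64 in PGM and 0.51 in PGF, with 0.74 in HM and 0.40 in HF.

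**Figure D1:**
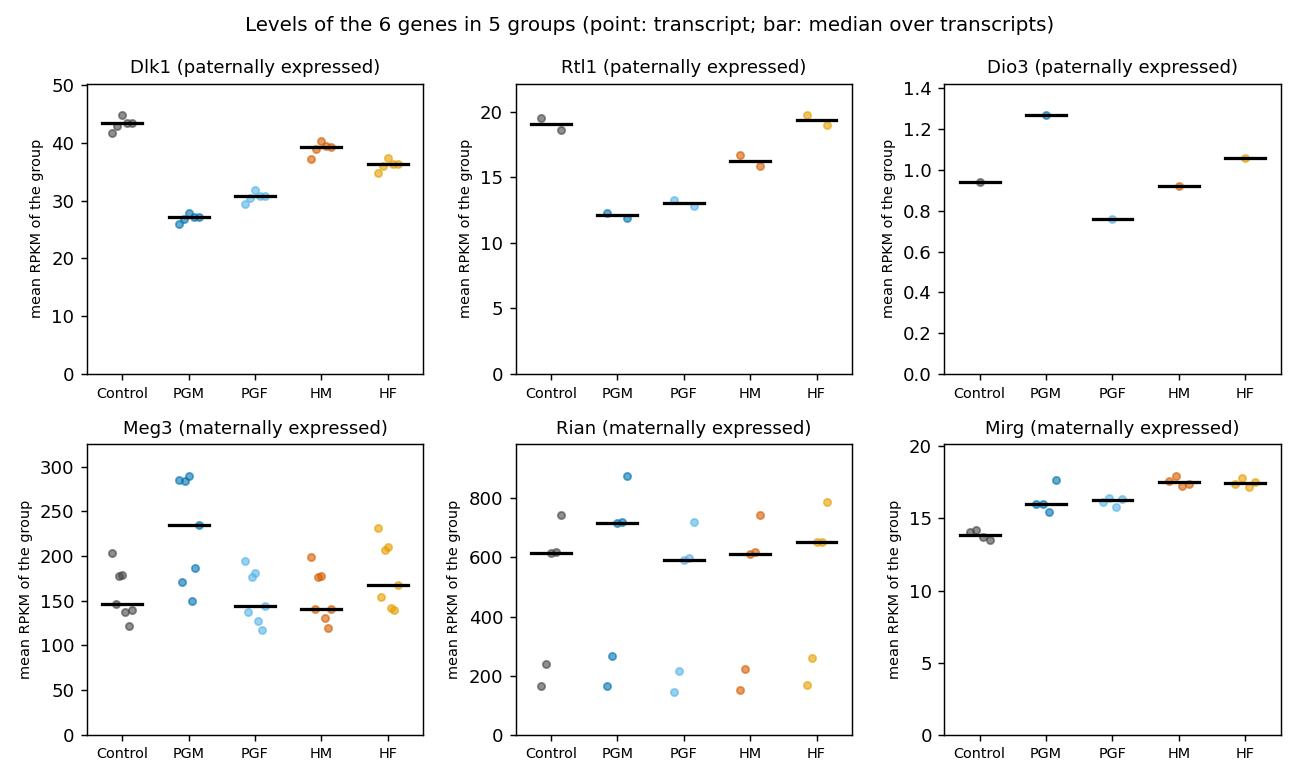
Mean RPKM of the 6 genes (vertical axes, linear from 0) by group, with 1 point per transcript and a bar at the median over transcripts. Dlk1 and Rtl1 are lowest in PGM (27.1 and 12.1 RPKM) and Meg3 is highest there (234 RPKM).

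Meg3, a nuclear noncoding RNA that marks the active maternal copy of the cluster, went the other way in PGM. Its median over transcripts was 147 RPKM in Control, 234 in PGM and 144 in PGF, with 141 in HM and 167 in HF. PGM was the highest group, and the others lay within 141 to 167 RPKM. PGM differed from Control by 0.67, which was counted, PGF by -0.03, HM by -0.05 and HF by 0.19. Between PGM and PGF, Meg3 differed by 0.70, which was counted too.

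The 7 Meg3 transcripts did not differ alike in PGM. Transcript uc011ysb.1 was at 234 RPKM against 139 in Control, uc007pat.2 at 290.1 against 179, uc007par.2 at 284 against 178 and uc007pav.2 at 187 against 121, differences of 0.75, 0.69, 0.67 and 0.62. The difference was 0.49 for uc007pap.2, the highest transcript in Control (203 RPKM), 0.22 for uc007paq.2 and 0.11 for uc007pau.2. Thus 4 of 7 transcripts passed 1.5-fold and all 7 were higher in PGM. The transcript in the middle was uc007paq.2 in Control and uc011ysb.1 in PGM, so the median compares different transcripts. The median of the 7 single differences was 0.62, still past 1.5-fold, while the mean over transcripts gave 0.53 and the highest transcript 0.49, both short of it. What sets these transcripts apart in structure was not analysed here.

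Rian, the host RNA of a large group of small nucleolar RNAs, was the most abundant of the 6 genes, at 616 RPKM in Control, 717 in PGM and 592 in PGF, with 613 in HM and 651 in HF. PGM was the highest group, as for Meg3, but the difference from Control was only 0.22. In PGF, HM and HF the values were -0.06, -0.01 and 0.08. Its transcripts spread widely in level, from 166 RPKM for uc007paz.2 to 743 for uc011ysu.1 in Control. In PGM the first was at 167 RPKM, a difference of 0.004, and the second at 877, a difference of 0.24.

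Mirg, the host of microRNAs at the far end of the maternal unit, was at 13.9 RPKM in Control, 15.99 in PGM and 16.25 in PGF, with 17.5 in HM and 17.5 in HF. Control was the lowest group, and HM and HF were nearly equal. PGM differed from Control by 0.20, PGF by 0.22, HM by 0.32 and HF by 0.32, none past 1.5-fold. In HM and HF, 2.66% and 2.52% of all genes compared had a larger positive difference than Mirg.

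**Figure D2:**
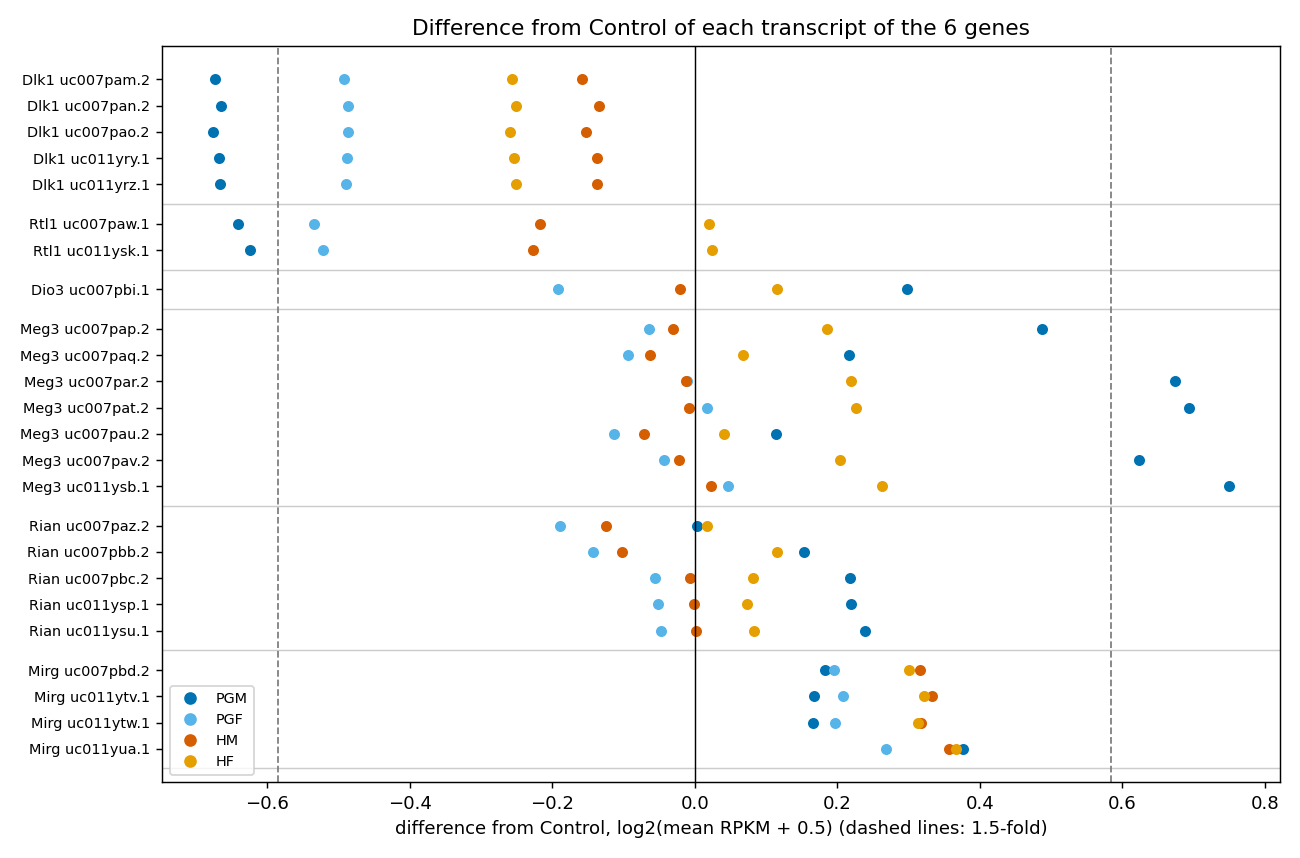
Difference from Control (horizontal axis, log2 of mean RPKM + 0.5) of each of the 24 transcripts, with a colour for each of the groups PGM, PGF, HM and HF and dashed lines at 1.5-fold. The Dlk1 transcripts sit together in every group, while the 7 Meg3 transcripts in PGM run from 0.11 to 0.75.

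Read against all genes, 3 of the 6 members passed 1.5-fold in PGM against Control, Dlk1 and Rtl1 lower and Meg3 higher. Over the 17481 genes that averaged 1 RPKM or more, 4.64% did, 2.35% higher and 2.29% lower. In PGF against Control no member passed, where 4.06% of genes did (2.16% higher and 1.9% lower), and 3.55% of genes had a lower difference than Dlk1 and 2.76% a lower one than Rtl1. None passed in HM against Control, where 1.54% of genes did (0.675% higher and 0.87% lower), or in HF, where 0.835% did (0.658% higher and 0.177% lower). Between PGM and PGF 1 member passed, Meg3, which was higher in PGM, where 0.99% of genes passed (0.435% higher and 0.555% lower). Between HM and HF none did, where 1.68% of genes passed (0.366% higher and 1.31% lower). The comparisons with Control share the same Control samples, so their values are not independent of each other. Over all genes the median difference was 0.005 in PGM and -0.03 in PGF, with -0.03 in HM and 0.02 in HF.

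The paternally and the maternally expressed genes were set against each other within each group. Both sides come from the same libraries, so a shift of scale between groups leaves the contrast nearly untouched. Dlk1 stood at 29.5% of the Meg3 level in Control, 11.6% in PGM and 21.4% in PGF, with 27.8% in HM and 21.7% in HF. The median log2 level of the paternal genes minus that of the maternal genes was -2.91 in Control, -4.22 in PGM and -3.41 in PGF, with -3.08 in HM and -3.08 in HF. Control was the group with the smallest gap and PGM the one with the largest, a difference from Control of -1.31. In PGF the contrast differed from Control by -0.50, in HM by -0.17 and in HF by -0.17.

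This contrast is in effect Rtl1 against Meg3, since they were the middle genes of their sides in all 5 groups. With the mean of each side in place of the median the difference of PGM from Control was -0.70. Of the 9 pairs of a paternal with a maternal gene, 7 had a lower ratio in PGM than in Control, between -1.34 for Dlk1 against Meg3 and 0.10 for Dio3 against Mirg. All 9 pairs were lower in PGF, between -0.75 and -0.14, and 8 of 9 in HM and in HF. In PGM the pairs above 0 were those of Dio3 with Rian and with Mirg. The pairs share genes and are not independent.

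**Figure D3:**
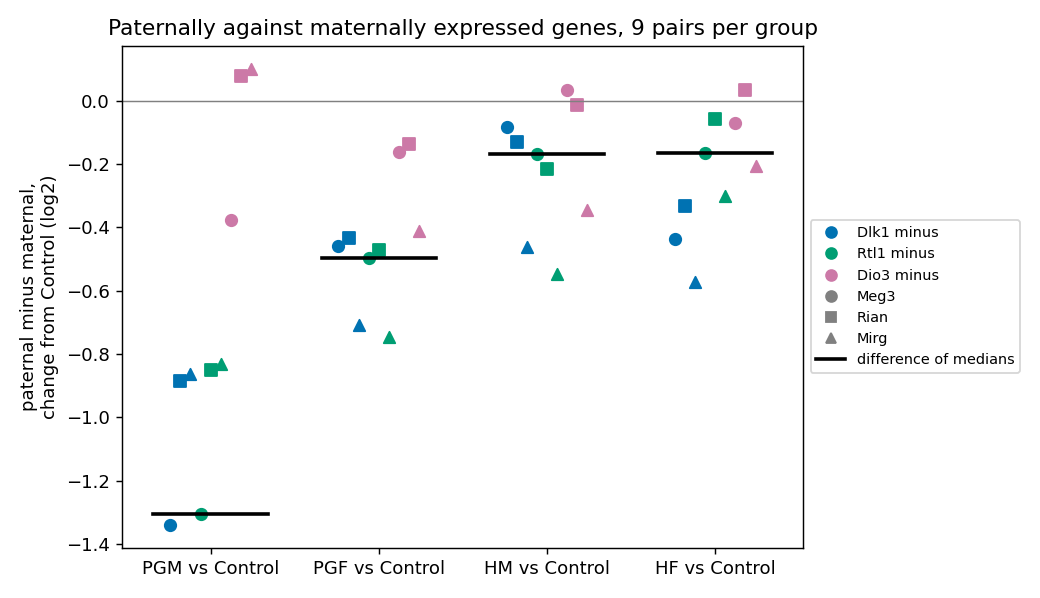
Change from Control (vertical axis, log2) of the ratio of each paternally to each maternally expressed gene, with 9 pairs per group, colour for the paternal gene, shape for the maternal gene and a black bar for the difference of the medians. In PGM the pairs of Dlk1 and Rtl1 with Meg3 lie lowest, at -1.34 and -1.31, and those of Dio3 lie highest.

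The genes did not pair off by parental origin alone. As a measure of likeness, the root mean square distance was taken between log2 profiles over the 5 groups, each centred on its own mean. It was 0.12 for Dlk1 and Rtl1, 0.18 for Meg3 and Rian, 0.15 for Rian and Mirg and 0.29 for Meg3 and Mirg. Meg3 thus lay as far from Mirg as Dlk1 did (0.29), although Dlk1 is of the other side. Dio3 lay 0.07 from Rian and 0.15 from Meg3, nearer than to Dlk1 or Rtl1, from both of which it lay 0.33 away. Since Dio3 was near 1 RPKM and depth is unknown, its place is uncertain.

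Leaving out clone names, predicted genes and unnamed accessions, the genes of the table with the profile most like that of Dlk1 were Mir369 (distance 0.04), a hairpin within the span of Mirg, Acss3 and Scn7a (both 0.06). For Rtl1 they were Dmrta2 (0.03), Pi15 (0.04) and Nkx2-4 (0.04), for Meg3 Ido1 (0.08), Daf2 (0.08) and Cited4 (0.09). For Rian they were Smrp1, Dbn1 and Dpf1 (0.02 each), and for Mirg Cd14 (0.03), Golm1 (0.04) and Mobkl2c (0.04). The antisense row 6430411K18Rik, left out as a clone name, lay 0.04 from Rtl1. These distances rest on 5 group means, and many genes lie close by.

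Small RNAs of the cluster were present in the table as 51 microRNA hairpins and 2 small nucleolar RNAs, of which 23 and 1 had a mean of at least 1 RPKM. Hairpin values ran from 0 to 21.6 RPKM, and 18 of the 51 were listed at 0 in at least 1 group. Their median was 0.90 RPKM in Control, 0.82 in PGM and 0.96 in PGF, with 0.89 in HM and 0.93 in HF. The small nucleolar RNA AF357425, encoded within the span of Rian, was at 17.1 RPKM in Control, 11.1 in PGM and 11.98 in PGF, with 14.2 in HM and 15.7 in HF, so Control was the highest group although Rian itself was highest in PGM. Within the same span, the hairpin Mir1188 was at 7.34 RPKM in Control, 2.93 in PGM and 4 in PGF, with 5.81 in HM and 5.07 in HF. Mir453, within the span of Mirg, was at 9.75 RPKM in Control, 6.48 in PGM and 9.53 in PGF, with 12.4 in HM and 14 in HF. Other hairpins were higher in PGM, among them Mir1906-1, the most abundant, at 16.9 RPKM in Control and 21.6 in PGM, and Mir409 at 0.48 and 1.83. Of the 23 hairpins that averaged 1 RPKM or more, 10 were higher and 13 lower in PGM than in Control. The depth behind such short features is unknown, and the values are not levels of mature small RNAs.

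Within 1 Mb on each side of the cluster, 20 protein-coding genes had a mean of at least 1 RPKM. None passed 1.5-fold in any of the 6 comparisons. Over all genes at most 4.64% did, so few or none would pass in a set of 20. The differences of these 20 genes from Control lay between -0.46 and 0.19 in PGM, with a median of -0.02. In PGF they lay between -0.53 and 0.14, with a median of -0.10. Begain, the nearest of them before Dlk1, was at 78.4 RPKM in Control, 84.9 in PGM and 73.4 in PGF, and Ppp2r5c, the nearest beyond Dio3, at 97.1, 97.6 and 89.99. The lowest value in both groups was that of Traf3, a signalling adaptor, at 123 RPKM in Control, 89.8 in PGM and 85.3 in PGF.

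**Figure D4:**
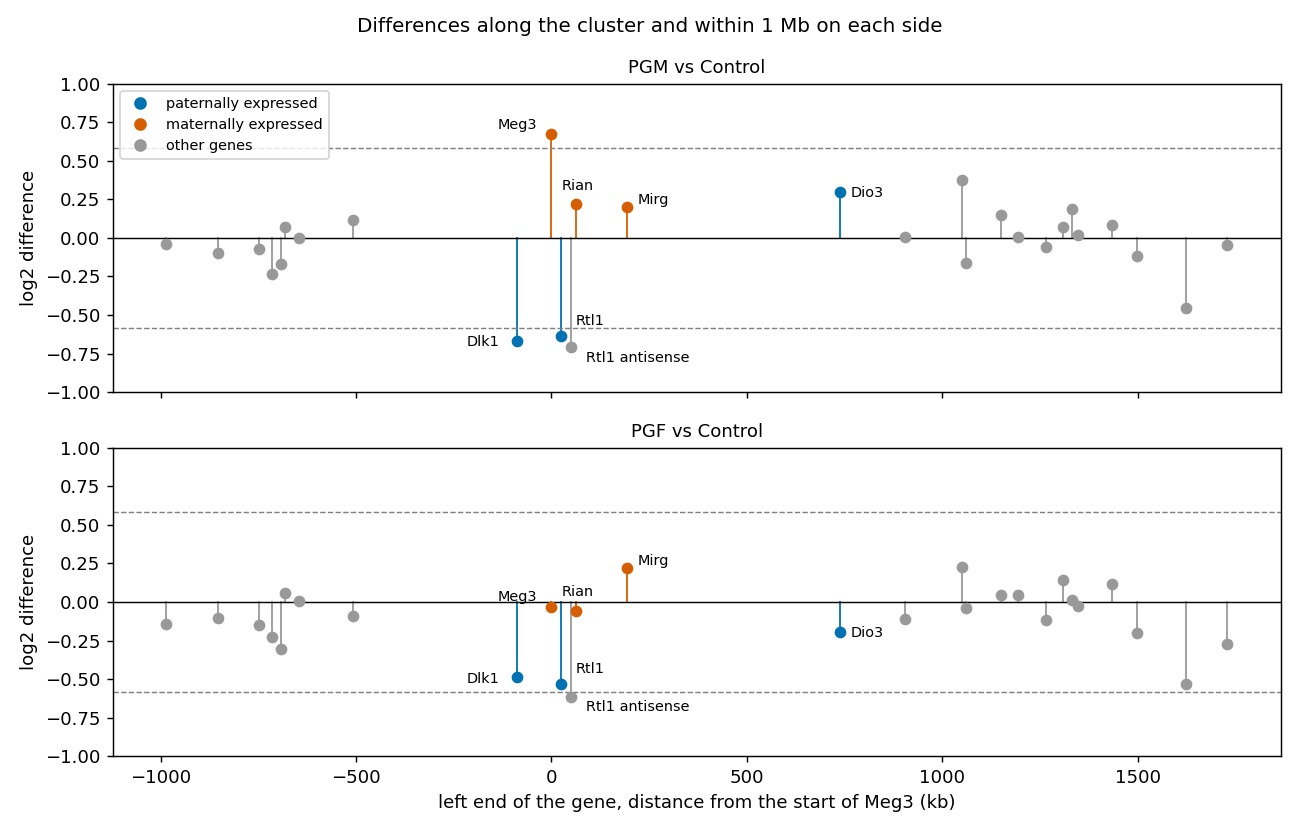
Difference in PGM (upper) and PGF (lower) from Control (vertical axis, log2) of genes in and within 1 Mb of the cluster, placed by their left end in kb from the start of Meg3, with dashed lines at 1.5-fold. Left ends are those of RefSeq, where Rtl1 begins at 109564900, further left than in the GENCODE span given in the text. Dlk1 at -0.67, Rtl1 at -0.63 with its antisense RNA at -0.71, and Meg3 at 0.67 pass 1.5-fold in PGM. None of the 20 coding neighbours reaches 1.5-fold. Over all genes 4.64% do in PGM and 4.06% in PGF, so few or none would in a set of 20.

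Most imprinted genes of other clusters were lower in PGM and PGF whichever parental copy they are expressed from. Of 23 paternally expressed genes 21 were lower in PGM, with a median of -0.28, and 5 passed 1.5-fold lower, among them the growth factor gene Igf2 at 58.5 against 122 RPKM in Control and Zdbf2 at 34.3 against 68.2. Of 12 maternally expressed genes 9 were lower, with a median of -0.19, and 4 passed 1.5-fold lower, including H19, the noncoding partner of Igf2, at 2.93 against 7.18 RPKM, and Asb4 at 14.5 against 24.8. Over all genes compared, 2.29% passed lower in PGM. The medians were -0.32 and -0.15 for PGF, -0.14 and -0.09 for HM and -0.05 and -0.03 for HF.

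Of 19 listed factors that act on DNA methylation or chromatin, 13 were lower in PGM, with a median of -0.06, and 14 in PGF, with -0.14. Zfp57 and Zfp445 were among the 6 that were higher in PGM, by 0.12 and 0.09, and differed by 0.02 and 0.04 in PGF. None passed 1.5-fold in any group against Control. The largest share of all genes to pass against Control was 4.64%, for PGM, so few or none would be counted among 19 genes. Tet1 and Tet3, which oxidise methylated cytosine, were at 24.2 and 18.7 RPKM in Control, 17.9 and 14.1 in PGM, 16.4 and 13.0 in PGF and 17.0 and 13.1 in HM.

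In the Notch pathway, on which Dlk1 is thought to act as an atypical ligand, 14 of 20 genes were lower in PGM with a median of -0.20, 17 in PGF with -0.15 and 17 in HM with -0.20. None passed 1.5-fold, where 4.64% of all genes did in PGM, 4.06% in PGF and 1.54% in HM, so few or none would pass in a list this short. Dlk2, the closest relative of Dlk1, was at 24.8 RPKM in Control, 37.1 in PGM and 26.1 in PGF, with 27.2 in HM and 30 in HF. PGM was thus the highest group for Dlk2, at a difference of 0.57 just short of 1.5-fold, and the lowest for Dlk1. Notch3, a receptor of vascular smooth muscle, was at 19.4 RPKM in Control, 15.3 in PGM, 13.6 in PGF and 13.4 in HM.

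Around Dio3, the list of thyroid hormone handling genes had 9 of 18 members higher in PGM with a median of 0.07, and 9 in PGF with -0.01. Dio2, the deiodinase that activates the hormone, was at 14.5 RPKM in Control, 17.7 in PGM and 23.5 in PGF, with 21.6 in HM and 16.8 in HF, so PGF was highest for Dio2 and lowest for Dio3. Dio1 was listed between 0.02 and 0.13 RPKM. Ttr, the thyroxine carrier of the choroid plexus, and Crym, a cytosolic hormone binding protein, differed most. Ttr was at 7.01 RPKM in Control, 106 in PGM and 440 in PGF, with 22.75 in HM and 18.7 in HF. Crym was at 4.82 RPKM in Control, 21.2 in PGM and 7.96 in PGF, with 10.1 in HM and 13.9 in HF.

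Markers of the sampled tissue were also lower in the groups where Dlk1 and Rtl1 were lowest. Transcription factors that define the hypothalamus were lower in 13 of 14 measured members in PGM, with a median of -0.66, and in 13 in PGF, with -0.70. Their summed level was 117 RPKM in Control, 91.2 in PGM and 79.5 in PGF, with 104 in HM and 114 in HF, and none was listed at 0. Otp, needed for neuroendocrine neurons, was at 8.45 RPKM in Control, 3.56 in PGM and 3.15 in PGF, with 5.07 in HM and 6.05 in HF. Thalamic markers were higher in 8 of 8 members in PGM and in 7 in PGF, with medians of 1.07 and 0.74 and summed levels of 539 RPKM in Control, 766 in PGM and 671 in PGF, with 565 in HM and 526 in HF. Prkcd, the most different of them, was at 35.0 RPKM in Control, 154 in PGM and 156 in PGF, with 69.2 in HM and 38.2 in HF. General neuronal markers had medians of 0.07 in both PGM and PGF. The part of tissue make-up in the Dlk1, Rtl1 and Meg3 values was not tested.

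Dlk1 is also known from hypothalamic neurons and from the pituitary. Hypothalamic neuropeptide genes were lower in 13 of 18 members in PGM and in PGF, with medians of -0.32 and -0.35. Avp, the vasopressin gene, was at 658.5 RPKM in Control, 352 in PGM and 267 in PGF, with 525 in HM and 521 in HF, and Hcrt, the orexin gene, at 178, 167, 198, 185 and 185. Pomc and Agrp differed most. Pomc was at 24.3 RPKM in Control, 16.1 in PGM and 370 in PGF, with 22.4 in HM and 20.5 in HF. Agrp was at 12.7 RPKM in Control, 6.58 in PGM and 4.64 in PGF, with 18.1 in HM and 16.2 in HF. Pituitary hormone genes summed to 73.0 RPKM in Control, 71.9 in PGM and 1657 in PGF, with 89.5 in HM and 38.1 in HF, with Prl and Pou1f1 listed at 0 in HF. Of the 7 summed genes, the 6 that averaged 1 RPKM or more were all higher in PGF, with a median of 3.52, where Dlk1 was lower than in Control. Oligodendrocyte genes summed to 7073 RPKM in Control, 11327 in PGM and 14190 in PGF, with 9691 in HM and 7497 in HF. Meningeal and fibroblast genes were lower in 10 of 10 members in PGM, with a median of -0.80, and in 10 in PGF, with -0.47, and summed to 186 RPKM in Control, 103 in PGM and 133 in PGF, with 124 in HM and 207 in HF. The medians in PGM and PGF were -0.12 and -0.03 for endothelium, -0.16 and -0.12 for astrocytes, 0.04 and -0.07 for microglia, 0.17 and 0.21 for cortex and striatum, 0.40 and 0.81 for choroid plexus and -0.90 and -0.47 for erythroid cells. The part of these lists in the values of the cluster was not tested.

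The labels give no sex, and the 4 Y-linked genes of the 5 listed sex chromosome genes were higher than in Control in PGM, PGF, HM and HF. The Y-linked gene Ddx3y was at 2.52 RPKM in Control, 30.4 in PGM and 32.0 in PGF, with 16.75 in HM and 15.9 in HF. Xist, the RNA of the inactive X chromosome, was at 44.0 RPKM in Control, 14.2 in PGM and 11.6 in PGF, with 26.4 in HM and 35.4 in HF. PGM and PGF were the lowest groups for Xist, as they were for Dlk1 and Rtl1. The part of these genes' differences in the values of the cluster was not tested.

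**Figure D5:**
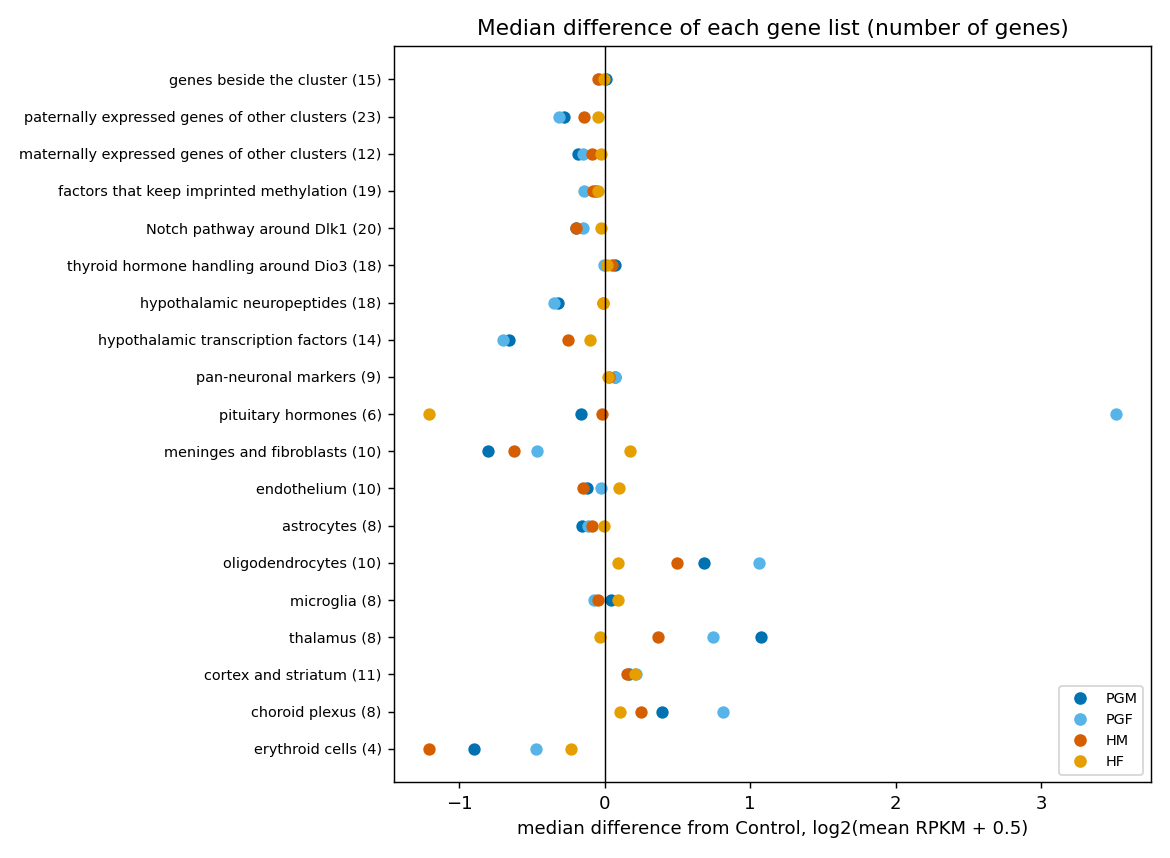
Median difference from Control (horizontal axis, log2 of mean RPKM + 0.5) of the gene lists apart from those of the cluster itself and of the sex chromosomes, with the number of genes in brackets and a colour for each of the groups PGM, PGF, HM and HF. Hypothalamic transcription factors lie at -0.66 in PGM and -0.70 in PGF, thalamic markers at 1.07 and 0.74, and a list of 15 coding genes beside the cluster at 0.008 and -0.04. That list is smaller than the set of 20 neighbours described in the text and does not hold Traf3.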

How the data were processed

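The authors deposited RPKM values of 49404 transcripts with UCSC identifiers, as 1 mean per group, per the file headers. A second header line inside the table was removed (1 row). Reads were checked with FastQC and aligned with Novoalign 2.08 to mm10, per the submitters' processing notes. The sources used here do not give the depth, the counting program or its use of strand. Samples were assigned to groups by their titles.

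Each gene name took the median of its transcripts, and 17481 of 24831 names (70.4%), 5 of the 6 described among them, averaged 1 RPKM or more. Differences of log2(mean RPKM + 0.5) were computed in 6 comparisons and counted at 1.5-fold. With 1 value per group no test was run. The calculation was tested on simulated data with little scatter, base levels above 1 RPKM and planted changes well beyond 1.5-fold. That test checked the arithmetic, not calls near 1.5-fold or levels near 1 RPKM. Gene positions come from GENCODE M21 for the 6 genes and from RefSeq GRCm38.p6 otherwise, matched by symbol.

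The 6 genes, the 23 gene lists and the rule for named genes were chosen with earlier results of these data known. The rule named the 6 genes and features of the cluster, the 2 genes of each other list with the largest difference from Control (not all are printed), neuropeptide, pituitary and deiodinase genes, and the 3 closest profiles per member above 1 RPKM, without clone names. Alternatives varied pseudocount, filter, transcript summary, scaling, threshold, reference and members. Python 3.11.15, numpy 2.4.6, pandas 2.3.3 and matplotlib 3.10.9 were used.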

Additional observations from a re-analysis of the deposited data

How the results depend on the processing

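No paired analysis was possible because only group means were used, so no replicate block could be fitted and no replicate left out. A value is given here when it moved by more than the median size of the difference over all genes in that comparison, and a count when it moved by over 1.5 times. Of the main values and counts under each alternative, 329 did not move so far, 67 did and 0 changed direction after being called. The cause was not tested. The reading of transcripts bore most on Meg3, whose difference of PGM from Control was 0.49 with the highest transcript, 0.53 with the sum and 0.53 with the mean over transcripts (the last chosen after seeing the data), all short of 1.5-fold. Against PGF the same settings gave 0.55, 0.57 and 0.57. With the highest transcript Mirg was at 0.38 in PGM against Control and 0.11 against PGF. Dio3 in PGM against PGF was 0.67 with a pseudocount of 0.1 and 0.37 with 1. With differences taken from HF instead of Control, PGM gave -0.42 for Dlk1, 0.49 for Meg3 and -0.12 for Mirg, PGF gave -0.24, -0.22 and -0.10, and HM gave 0.11, -0.24 and 0.0032, with -0.14 for Dio3. Dlk1 and Meg3 in PGM then fell short of 1.5-fold.

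The contrast of paternal with maternal genes in PGM against Control was -1.13 with the highest transcript, -0.96 with summed RPKM of each side and -0.70 with the mean of each side (chosen after seeing the data). Leaving out Dlk1, Rtl1, Meg3, Rian or Mirg gave -0.84, -0.86, -0.84, -1.07 and -1.08. In PGF it was -0.33 without Dlk1 and -0.31 without Rtl1. In HM it was -0.067 without Dlk1, -0.025 without Rtl1, -0.38 without Meg3 and -0.36 without Rian. In HF it was -0.26 with summed RPKM, -0.25 without Rtl1, -0.30 without Dio3 and -0.23 with the mean. For PGM against PGF it was -0.66 with the highest transcript, -0.68 with summed transcripts, -0.50 with summed RPKM and -0.25 with the mean, and -0.51, -0.55, -0.23, -0.45 and -0.59 without Dlk1, Rtl1, Meg3, Rian or Mirg. For HM against HF it was 0.11 with summed RPKM, 0.23 without Rtl1, 0.18 without Dio3, -0.20 without Meg3 and -0.12 without Rian.

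At a 2-fold threshold the count against Control was 145 for PGM, 148 for PGF, 38 for HM and 54 for HF, with 50 between PGM and PGF and 46 between HM and HF. With no filter the counts were 499 in HM, 367 in HF, 389 between PGM and PGF and 521 between HM and HF, and with a mean of 3 RPKM or more 172, 76, 93 and 182. With a pseudocount of 0.1, 272 genes passed between PGM and PGF.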
